A study of Mus musculus with 6 samples.

Results

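*Pmch*, *Hcrt*, *Tcf7l2*, *Slc17a6*, *Prkcd* and *Shisa6* are genes typical of the hypothalamus and thalamus, brain regions that lie beneath the cerebral cortex and were not the tissue sampled. They were followed on microarrays of mouse cerebral cortex. Every probe set whose gene symbol entry held one of these 6 names was taken, which gave 12 of the 45077 probe sets on the array and 6 of 21571 symbol entries. The genes were selected on their region and with the group mean signals of these same arrays already known, in particular the SAMP8 control and SAMR1 means. Their SAMP8 control vs. SAMR1 values are therefore a description and support nothing further. The SAMP8 given STEE vs. SAMR1 values use the same SAMR1 arrays and are not independent of that choice either.

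All animals were male and, per the labels, 16 weeks old. The paper states this age for mice that then had a week of acclimatization before administration, so the tissue appears to have been taken later. All animals were also given the thymidine analog BrdU in their drinking water. The senescence-accelerated SAMP8 strain received either water (labelled SAMP8 + Water, here SAMP8 control) or sugarcane top ethanolic extract at 20 mg/kg by mouth (SAMP8 + STEE, here SAMP8 given STEE), and the senescence-resistant SAMR1 strain received water (SAMR1 + Water, here SAMR1). Administration lasted 30 days and went on through 8 days of behavioral testing, the mice were housed singly, and 2 mice per group were hybridised. SAMR1 and SAMP8 are separate strains, so a strain comparison here is also a comparison of everything else that differs between them. The deposited tables give a single mean log2 signal per group for each probe set, beside the authors' own comparisons, which were not used. No value of a single mouse was used, so none of the differences has an error or a test, and whether the mice of 2 groups overlap cannot be said.

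As background, neurons that make melanin-concentrating hormone and neurons that make hypocretin (orexin) are separate populations of the lateral hypothalamus. Both send axons widely through the brain, including the cortex, and are known for their roles in sleep, arousal and feeding. Their cell bodies, which hold most of the mRNA, lie outside the cortex. The thalamus relays sensory and motor signals to the cortex through glutamatergic neurons that load their vesicles with VGLUT2, the product of *Slc17a6*, whereas most cortical excitatory neurons use VGLUT1, the product of *Slc17a7*. *Tcf7l2* encodes a transcription factor of the Wnt pathway that marks the developing and adult thalamus, *Prkcd* encodes protein kinase C delta, which is abundant in thalamic relay neurons, and *Shisa6* encodes an auxiliary protein of AMPA receptors. Messenger RNA of a whole tissue cannot tell fewer cells of a type apart from less RNA per cell.

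Promoter windows of 5 of the 6 genes were found in the RefSeq sequences (build GRCm38.p6), running from 250 bases before to 50 bases after an annotated start; *Shisa6* was not among them. They are shown because the hypothalamic peptide genes differ in how far their signals stood apart between the strains. A further reason is that *Tcf7l2* encodes a factor whose own recognition letters can be looked for. The windows are reference sequence and not that of SAMR1 or SAMP8, so they cannot show a difference of sequence between the strains. The letters TATAAA, and ATCAAAG or AACAAAG for TCF/LEF factors, were searched on both strands. Capitals mark the matches. The *Pmch* window lies at chr10:88090822-88091121 on the + strand, the *Hcrt* window at chr11:100762882-100763181 on the - strand, and the downstream of the 2 *Tcf7l2* windows at chr19:55895071-55895370 on the + strand.
Pmch: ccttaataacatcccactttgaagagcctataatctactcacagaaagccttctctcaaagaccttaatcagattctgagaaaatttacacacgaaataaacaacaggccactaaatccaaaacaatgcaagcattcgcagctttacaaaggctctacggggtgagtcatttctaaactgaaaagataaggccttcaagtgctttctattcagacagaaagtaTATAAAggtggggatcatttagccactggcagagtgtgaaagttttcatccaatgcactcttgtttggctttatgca
Hcrt: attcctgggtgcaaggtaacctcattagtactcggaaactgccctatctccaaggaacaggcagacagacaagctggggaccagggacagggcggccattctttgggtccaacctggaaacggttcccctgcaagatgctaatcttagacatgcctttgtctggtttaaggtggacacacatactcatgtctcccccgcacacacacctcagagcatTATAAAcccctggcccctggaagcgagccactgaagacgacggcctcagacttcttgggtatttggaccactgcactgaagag
Tcf7l2: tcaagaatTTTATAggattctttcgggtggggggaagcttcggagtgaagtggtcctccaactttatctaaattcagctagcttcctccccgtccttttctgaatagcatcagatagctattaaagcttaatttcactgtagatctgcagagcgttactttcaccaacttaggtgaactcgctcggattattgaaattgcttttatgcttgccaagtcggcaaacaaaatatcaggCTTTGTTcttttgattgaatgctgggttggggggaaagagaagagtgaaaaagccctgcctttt

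*Pmch* and *Hcrt* each held TATAAA on the gene's own strand, beginning at position -27 in *Pmch* and at -33 in *Hcrt*, counted from the annotated start. Among all 32851 promoter windows of this length, 13.6% held these letters on either strand. The downstream *Tcf7l2* window held AACAAAG on the opposite strand at position -14, where it reads as CTTTGTT, and TATAAA on the opposite strand at -242. The upstream *Tcf7l2* window and both *Slc17a6* windows held neither. Of the 2 *Prkcd* windows, one held AACAAAG at -242 and the other TATAAA at -244. A TCF/LEF match was present in 9.33% of all windows. The matches are descriptions of sequence, and the arrays do not measure binding at these places.

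Of the 6 genes, the widest gap between the strains was that of *Pmch*, the precursor of melanin-concentrating hormone. At its single probe set (1429361_PM_at), the authors' mean log2 signal was 5.79 for SAMR1, 3.31 for SAMP8 control and 3.31 for SAMP8 given STEE. The signal was thus high only in SAMR1, and both SAMP8 groups had the same mean to 2 decimals. The difference of SAMP8 control from SAMR1 was -2.48, a 5.58-fold lower signal. Only 1 of the 45077 probe sets had a lower difference.

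*Hcrt*, the precursor of the hypocretins, did not share this gap. Its single probe set (1420471_PM_at) had a mean log2 signal of 3.67 in SAMR1, 3.57 in SAMP8 control and 3.53 in SAMP8 given STEE. The SAMR1 mean was again the highest, by a narrow margin. The difference of SAMP8 control from SAMR1 was -0.10, and 39.9% of all probe sets differed at least as much in one direction or the other. The 2 peptide genes of the lateral hypothalamus thus had unlike strain differences, which were not tested against each other. The *Hcrt* signal was low, however, with its SAMR1 mean under the SAMR1 median of 4.16 over all probe sets. How far it stood above the array's background is unknown, so its narrow gap says little about *Hcrt*.

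*Tcf7l2*, which is read by 4 probe sets, was lower in SAMP8 control than SAMR1 at each of them. At the probe set with the highest signal (1429428_PM_at), the mean log2 signal was 5.69 for SAMR1, 4.72 for SAMP8 control and 4.66 for SAMP8 given STEE. The difference between SAMP8 control and SAMR1 was -0.97, or 1.96-fold. The largest gap was found at 1429427_PM_s_at, with means of 4.49, 3.25 and 3.19 in SAMR1, SAMP8 control and SAMP8 given STEE and a strain difference of -1.24. The suffix s marks probes that can match more than one transcript. The deposited tables list the same target cluster for both of these probe sets. The other pair of probe sets gave strain differences of -0.47 and -0.43, so the size of the *Tcf7l2* difference depended on the probe set while its direction did not.

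*Slc17a6*, the vesicular glutamate transporter of thalamic and other subcortical neurons, was lower in both SAMP8 groups at each of its 2 probe sets. At 1428379_PM_at, the mean log2 signal was 7.42 for SAMR1, 6.69 for SAMP8 control and 6.93 for SAMP8 given STEE. At 1418610_PM_at, the means were 6.16, 5.36 and 5.36 in the same order. SAMP8 control was below SAMR1 at both, by -0.73 and -0.80 on the log2 scale. The probe sets diverged in SAMP8 given STEE, which lay 0.24 above SAMP8 control at the former and did not differ from it to 2 decimals at the latter. A gap of 0.24 or more in either direction was found for 3.13% of all probe sets in this comparison.

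*Prkcd* was apart between the strains mainly at 1 of its 2 probe sets. There (1422847_PM_a_at) the mean log2 signal was 6.31 for SAMR1, 5.53 for SAMP8 control and 5.50 for SAMP8 given STEE, a strain difference of -0.78 or 1.72-fold. At 1442256_PM_at, where the means were 4.03, 3.80 and 3.77, the strain difference was -0.23, and 10.2% of all probe sets differed at least as much in either direction. *Shisa6* gave the same picture. Its probe set 1455512_PM_at had a mean log2 signal of 5.02 in SAMR1, 4.33 in SAMP8 control and 4.45 in SAMP8 given STEE, with a strain difference of -0.69, whereas 1441785_PM_at had means of 4.08, 3.92 and 3.87 and a strain difference of -0.16. For both genes the second probe set, which the tables list under another target cluster, had the smaller difference in the same direction.

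**Figure D1:**
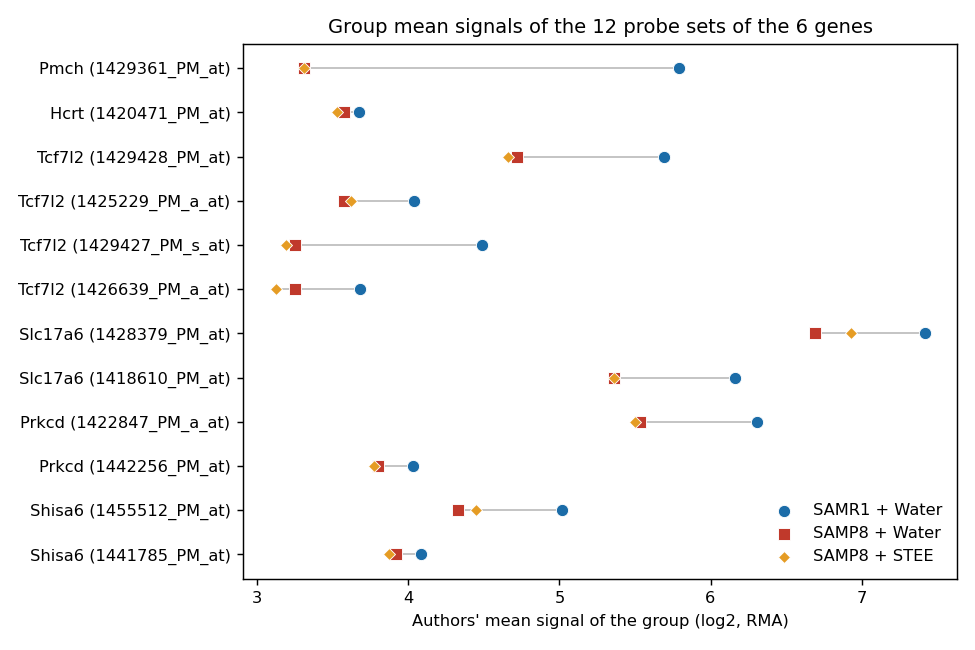
Each row is a probe set of the 6 genes, and the points are the authors' mean log2 signals of SAMR1 + Water (circle), SAMP8 + Water (square) and SAMP8 + STEE (diamond), with a line from the lowest to the highest; no error is shown because values of single mice were not used. In all 12 rows the SAMR1 mean is the highest, and the widest row is *Pmch*, from 3.31 to 5.79.

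SAMR1 had the highest mean at all 12 probe sets, and SAMP8 control was the lower at each. Over the array as a whole, 49.6% of the probe sets had a lower mean in SAMP8 control than SAMR1. The median strain difference over the 6 genes, each at its probe set of highest signal, was -0.76 on the log2 scale, against 0.00 over all probe sets. A gene was counted as lower or higher when its fold was at least 1.5, which is 0.585 on the log2 scale. By this count 5 of the 6 genes were called lower in SAMP8 control, *Hcrt* being the exception, where 0.366% of all symbol entries were. By probe set the number was 7 of 12, where 0.37% of all probe sets were called. These are the values that informed the choice of the genes. The called probe set nearest to this limit was that of *Shisa6* at -0.69, and the nearest one outside it was that of *Tcf7l2* at -0.47. When a gene was read as the mean of its probe sets, 3 of the 6 were called lower, since *Prkcd* came to -0.51 and *Shisa6* to -0.42.

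The second comparison asks whether the extract was accompanied by a difference in these transcripts. SAMP8 given STEE differed little from SAMP8 control at any of them. At the probe sets of highest signal, the differences ranged from -0.06 for *Tcf7l2* to 0.24 for *Slc17a6*, with a median of -0.015 on the log2 scale, and over all probe sets the median absolute difference was 0.06. Of the 12 probe sets, 7 were lower, 3 were higher and 2 were equal. None of the 6 genes and none of the 12 probe sets reached a fold of 1.5. This fold was rare on the array as a whole in this comparison, at 0.107% of symbol entries and 0.0799% of probe sets, so that a count of 0 among so few genes is near the background and is not a result about them. The SAMP8 control arrays are the same as in the strain comparison.

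SAMP8 given STEE was lower than SAMR1 at all 12 probe sets. At the probe sets of highest signal the difference was -2.48 for *Pmch*, -1.03 for *Tcf7l2*, -0.81 for *Prkcd*, -0.57 for *Shisa6*, -0.49 for *Slc17a6* and -0.14 for *Hcrt*. With the limit of 1.5-fold, 3 of the 6 genes were called lower, where 0.38% of symbol entries were, and 5 of the 12 probe sets, where 0.41% of all probe sets were. *Shisa6* and *Slc17a6* did not reach the limit at these probe sets, but *Slc17a6* did at 1418610_PM_at, with -0.80, and 4 of the 6 genes were called when each was read at its probe set of largest range. When signals were set relative to 10 genes typical of the cortex, 5 of the 6 genes were called lower. The SAMR1 arrays are the same as in the strain comparison.

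**Figure D2:**
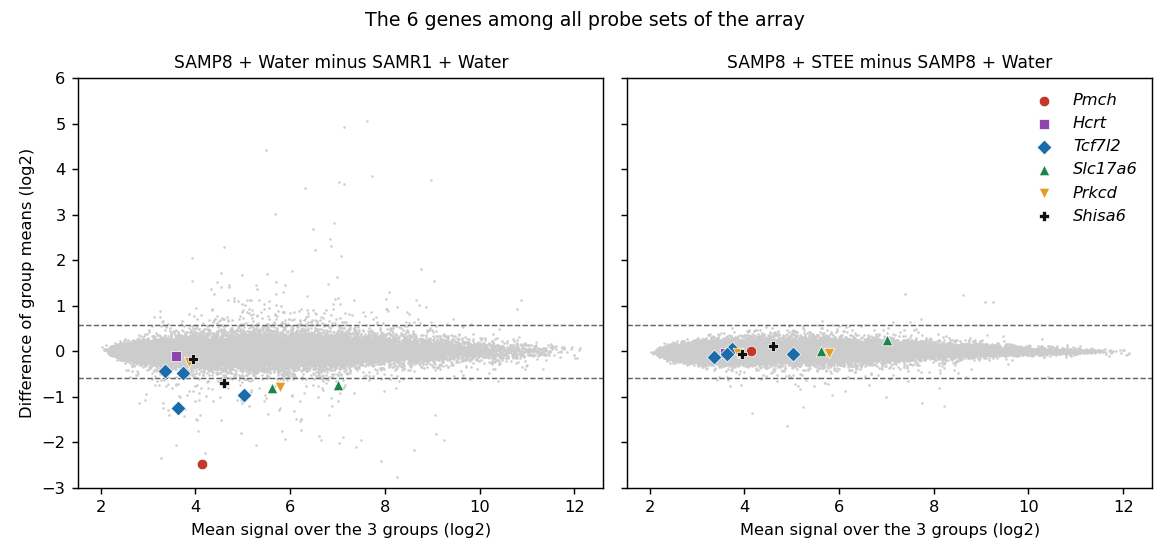
Each grey point is 1 of the 45077 probe sets, with its mean log2 signal over the 3 groups on the x axis and the difference of group means (log2) on the y axis; coloured symbols are the 12 probe sets of the 6 genes and dashed lines mark a 1.5-fold difference. In SAMP8 + Water minus SAMR1 + Water (left), *Pmch* lies at -2.48 and 7 of the 12 probe sets are under the lower line, and in SAMP8 + STEE minus SAMP8 + Water (right) all 12 lie between the lines.

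The genes most like each called gene were found by the distance between patterns, each pattern being the SAMP8 control minus SAMR1 and the SAMP8 given STEE minus SAMP8 control difference of the 3 group means. The search covered 9700 genes with a mean log2 signal of at least 5. The mean signals of *Pmch* and *Shisa6* over the groups were under this limit, so genes at their own signal level were not searched. Among the genes searched, *Pmch* had none within 0.2 log2 units. Its nearest was *Ppp1r1a*, at a distance of 0.54, with strain and extract differences of -1.94 and -0.03, followed by AI314760 and A430102J17Rik at 0.55 and 0.58. *Avp*, the vasopressin precursor of the hypothalamus, was nearer still at 0.27, but its mean signal of 4.21 was under the limit of the search.

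*Tcf7l2* lay nearest to *Hint2* and *Ppp1r14a*, at 0.020 and 0.022, and then to *Slc6a11*, a GABA transporter, at 0.11. For *Slc17a6* the nearest were *Kndc1* at 0.092, A330102K18Rik at 0.11 and *Mog*, a myelin protein gene, at 0.12. The nearest to *Prkcd* were *Stk3*, *Golga7b* and 6720475J19Rik, at 0.051 to 0.076, and those to *Shisa6* were *Fbxo2*, *Ift122* and *Clmn*, at 0.054 to 0.081. Within 0.2 log2 units there were 6 genes for *Tcf7l2*, 15 for *Slc17a6*, 22 for *Prkcd* and 35 for *Shisa6*.

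As lists, other genes typical of the hypothalamus did not share the wide gap of *Pmch*, but many of their signals were low. Of 11 hypothalamic peptide and transmitter genes on the array, 6 were lower and 5 higher in SAMP8 control than SAMR1, with a median difference of -0.05 on the log2 scale, and 1 was called. This was *Avp*, with a mean log2 signal of 5.66 in SAMR1, 3.43 in SAMP8 control and 3.54 in SAMP8 given STEE, a strain difference of -2.23. *Avp* and *Pmch* thus had their high value in the same group. *Oxt*, the oxytocin precursor, named after its values were seen, was short of the limit at -0.54. Its mean log2 signal was also highest in SAMR1, at 6.35. Some other peptide genes had SAMR1 signals under the median of 4.16 over all probe sets, such as *Agrp* at 2.82 and *Pomc* at 3.96. The list median therefore says little about such genes. *Cartpt*, *Pdyn* and *Nts* had signals above 4.16 and were higher in SAMP8 control than SAMR1. Of 12 transcription factor genes that mark hypothalamic neurons, 11 were lower in SAMP8 control, by at most -0.20, and none was called. Most of them had low signals, such as *Six6* at 2.61 in SAMR1, where the median over all probe sets was 4.16. How far such signals stood above the array's background is unknown, so the lack of a call says little about these genes.

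Genes known to be expressed in the same neurons as *Pmch* and *Hcrt*, and the receptors of their peptides, were picked from the lists for this role after their values were seen. *Cartpt*, which many melanin-concentrating hormone neurons also express, had mean log2 signals of 6.39 in SAMR1, 6.50 in SAMP8 control and 6.52 in SAMP8 given STEE. *Pdyn*, the dynorphin precursor that hypocretin neurons also express, had 4.97, 5.23 and 5.38 in the same order. Neither was highest in SAMR1. Both are also expressed in other neurons, so their values cannot be assigned to the hypothalamic ones. *Lhx9*, a transcription factor gene of hypocretin neurons, had 3.08, 2.88 and 2.79 and was highest in SAMR1, as was *Slc17a6*, which is also expressed there. *Mchr1*, the receptor of melanin-concentrating hormone, had mean log2 signals of 5.60, 5.89 and 5.83, a strain difference of 0.29 in the direction opposite to its ligand. The hypocretin receptor genes *Hcrtr1* and *Hcrtr2* differed between the strains by -0.01 and 0.02.

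Of 15 further genes typical of the thalamus, 12 were lower in SAMP8 control than SAMR1, with a median difference of -0.13 on the log2 scale. *Plekhg1* was the 1 called, and none was when each gene was read as the mean of its probe sets; it had mean log2 signals of 5.28 in SAMR1, 4.55 in SAMP8 control and 4.97 in SAMP8 given STEE. *Gbx2*, a transcription factor of the developing thalamus, differed by -0.02, at a low signal of 2.90 in SAMR1. In SAMP8 given STEE vs. SAMP8 control, 2 genes of this list were called lower, where 19 of 21571 symbol entries were. *Calb2*, which encodes the calcium-binding protein calretinin, had mean log2 signals of 6.94 in SAMR1, 6.83 in SAMP8 control and 6.10 in SAMP8 given STEE, and *Zic1*, a zinc finger transcription factor gene, had 7.67, 7.68 and 7.03. Both were low in SAMP8 given STEE alone, a pattern unlike that of *Tcf7l2*. Of 6 habenula genes, none was called in any comparison, and some had low signals, such as *Pou4f1* at 3.08 in SAMR1.

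Of the genes related to the 6 by function, none reached a fold of 1.5 between the strains, and the directions varied. *Slc17a7*, the cortical counterpart of *Slc17a6*, had mean log2 signals of 7.05 in SAMR1, 7.10 in SAMP8 control and 7.19 in SAMP8 given STEE. Its strain difference of 0.05 was under the median absolute difference of 0.07 over all probe sets, so it did not share the lower signal of *Slc17a6*. The protein kinase C genes *Prkca*, *Prkcb* and *Prkce* were higher in SAMP8 control by 0.09 to 0.17, whereas *Prkcd* was lower. The Shisa family genes *Shisa7* and *Shisa9* differed by 0.01 and 0.14, and the Wnt pathway genes *Tcf7*, *Tcf7l1* and *Ctnnb1* by 0.27, -0.14 and 0.04. *Gria1*, which encodes an AMPA receptor subunit, was lower in SAMP8 control by -0.16 at its probe set of highest signal, the same direction as *Shisa6*, and *Gria2* differed by 0.03. Over these and the other partner genes, 15 in all, 12 were higher in SAMP8 control and none was called.

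Markers of other regions near the cortex also stood apart between the strains, together with the 6 genes. All 10 striatal genes were higher in SAMP8 control than SAMR1, with a median difference of 0.67 on the log2 scale, and 6 were called, where 0.542% of all symbol entries were called higher; among these were *Gpr6* at 1.03, *Drd1* at 0.89, *Ppp1r1b* at 0.87 and *Penk* at 0.72. Their summed signal on the linear scale was 2391 for SAMR1, 3743 for SAMP8 control and 3869 for SAMP8 given STEE, while that of the 6 genes was 402.7, 217.7 and 235.8, or 231.5, 114.5 and 113.9 without *Slc17a6*, which adds most to it. The striatal genes and the 6 genes thus differed in opposite directions, and both SAMP8 groups lay on the same side of SAMR1. Of 9 choroid plexus genes, 8 were lower in SAMP8 control. *Ttr*, the transthyretin gene and the only one called, had mean log2 signals of 10.20, 8.24 and 9.33, and so, unlike *Pmch*, it was higher in SAMP8 given STEE than SAMP8 control. Summed over the choroid plexus list, the linear signal was 1293, 404.8 and 745.5, but *Ttr* made up most of it. Without *Ttr*, a sum added after the values were seen, it was 116.8, 102.5 and 101.9, and the other 8 genes differed by -0.09 to 0.02 between SAMP8 given STEE and SAMP8 control.

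Of 8 hippocampal genes, 7 were lower in SAMP8 control than SAMR1, and 6 were lower in SAMP8 given STEE than SAMR1, with medians of -0.22 and -0.26. The list summed to 324.2, 296.0 and 328.0 in SAMR1, SAMP8 control and SAMP8 given STEE, and to 110.4, 93.7 and 92.4 without *Wfs1*, the gene that adds most to the sum. *Dsp*, which encodes desmoplakin, was called only between SAMP8 given STEE and SAMR1, at -0.74. All 8 myelin genes were lower in SAMP8 control, with a median of -0.33; *Mog* was called at -0.63, and the sums were 10868, 9500 and 9226. The 4 blood probe sets differed between the strains by -0.08 to 0.17. The genes of the labelled tissue were measured at similar levels in all groups: of the 10 cortical genes, which include *Camk2a*, *Bcl11b*, *Tbr1*, *Cux2*, *Neurod6*, *Rorb*, *Slc17a7* and *Emx1*, none was called in any comparison, the median strain difference was 0.10, and they summed to 4312, 4424 and 4608. Array signals are not measured from a true zero, and no marker of these lists was at 0. The part of tissue from neighbouring regions in the values of the 6 genes was not tested.

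**Figure D3:**
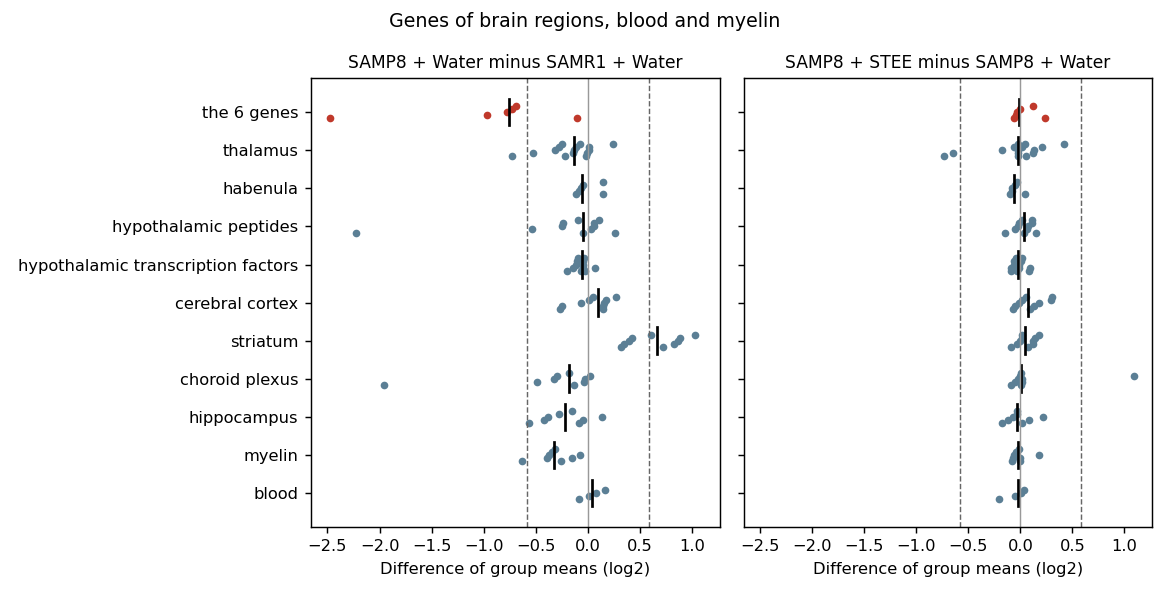
Each point is a gene at its probe set of highest signal, grouped by list, and the x axis is the difference of group means (log2) for SAMP8 + Water minus SAMR1 + Water (left) and SAMP8 + STEE minus SAMP8 + Water (right); black bars are list medians and dashed lines mark a 1.5-fold difference. The 6 genes have a median of -0.76 on the left, where the 10 striatal genes have one of 0.67, and *Ttr* and *Avp* are the points below -1.9 in the choroid plexus and hypothalamic peptide lists.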

How the data were processed

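RNA from the cerebral cortex of 6 mice, 2 per group, was measured on Affymetrix Mouse Genome 430 PM strips. As their methods and processing notes state, the authors used RMA (Expression Console) for summarisation and Transcriptome Analysis Console for the group comparisons. The deposited values are log2 group means (named bi-weight averages), rounded to 2 decimals, for 45077 probe sets. The tables also hold the authors' fold changes, ANOVA p-values and FDR p-values, which were left unused as the authors' own comparisons. The spread that these p-values imply was therefore not taken, and no test was made. The SAMP8 control means of both tables were identical.

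Differences of group means were taken on the log2 scale with Python 3.11.15, numpy 2.4.6 and pandas 2.3.3, and drawn with matplotlib 3.10.9. A gene was read at its probe set of highest mean signal and called at a fold of at least 1.5. The code that makes the calls was tested on simulated group means with known changes, which gives no error rate for the calls on these arrays. The named genes are the 6 genes, list genes past this fold (at most 5 per list and comparison), the cortical genes and the 3 nearest patterns of each called gene, beside others named for their role; some genes of the lists are not reported here. Members and lists were chosen with earlier results of these data known. *Drd1* and *Nwd2* were matched by older symbols, and *Kiss1*, *Gnrh1*, *Qrfp* and *Slc17a8* were not matched. The small number of mice limits the precision of every mean.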

Additional observations from a re-analysis of the deposited data

How the results depend on the processing

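The direction of the strain difference was kept by all 6 genes under the mean over all probe sets, the probe set with the largest range and both centrings. The readings over probe sets could not change it, because all 12 probe sets were lower in SAMP8 control. Either centring moved a difference by at most 0.13. The kept direction is therefore no further support for values that informed the choice of the genes. Of 78 differences of the 6 genes over the 3 comparisons, recomputed in these ways or summed from the differences within each table, 60 stayed within 0.1 log2 units and 18 moved further, and no called value changed sign. The number of genes called lower in SAMP8 control than SAMR1, 5 of 6, came to 3 with the mean over all probe sets and to 1 (*Pmch*) at a fold of 2. In SAMP8 given STEE vs. SAMR1 it went from 3 to 5 when centred on the cerebral cortex genes, whose mean log2 signal was 7.92 for SAMR1, 7.95 for SAMP8 control and 8.05 for SAMP8 given STEE, and to 5 at the lower of the other fold limits tried. The number with STEE stayed at 0 at both other folds. Without signals under 5, the share of probe sets called lower between the strains was 0.55%. No paired analysis was possible because the tables hold a mean per group, and for the same reason no mouse could be left out. Rounding of the means allows an error of up to 0.01 in each difference. How far the low signals of *Hcrt*, of *Pmch* in SAMP8 and of many list genes stood above the array's background is unknown.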
